A study of Mus musculus with 45 samples.

Results

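The comparison described here set primary tumors of the 67NR line against scaffolds taken from mice bearing 67NR tumors. It uses 6 of the 45 libraries in the series, tumors 19, 20 and 21 and scaffolds 10, 11 and 12, each named by its library number. Rows of the count table with the same gene symbol were summed, and a gene was kept if its 6 libraries together held more than 10 counts, which left 19068 of 55367 gene symbols.

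The study asked whether an implant placed away from the tumor can report on how far a breast cancer is able to spread. All mice were female BALB/c, 7 to 8 weeks old when a porous polycaprolactone scaffold was placed under the skin of the upper back, and 2 weeks later cancer cells in 50 uL of PBS were injected into the fourth right mammary fat pad. Scaffold, lung, spleen and primary tumor were taken 14 days after the injection, from 3 mice for each tissue and line, and healthy mice with a scaffold but no tumor gave control tissues. RNA was read from the 3′ ends of transcripts (QuantSeq), so the counts follow the number of transcripts and not their length.

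The 67NR line, the 4T07 line and the 4T1 line were grown from a single spontaneous mammary tumor of a BALB/cfC3H mouse. 67NR cells form a tumor at the site of injection and are neither invasive nor metastatic, 4T07 cells are invasive but not metastatic, and 4T1 cells form metastases. A 67NR tumor holds the inoculated cells together with the host cells that enter it, whereas the scaffold in the same kind of mouse is polymer filled with host tissue. The tumors and scaffolds therefore differed in the inoculated cells, the body site, the polymer and the time the tissue had been in place, and these cannot be told apart here. In bulk samples, fewer cells of a type and less RNA per cell cannot be told apart either. The labels do not link a tumor to the scaffold of the same mouse.

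As background, a tumor that grows from an injected line is rich in dividing cells, which express the genes of DNA replication, chromosome condensation and the spindle. A polymer implant draws a foreign body response, in which macrophages settle on the surface, take up lipid and debris into lysosomes, and fuse into multinucleated giant cells. These cells share with osteoclasts, the giant cells of bone, the acid-secreting pump, cathepsin K and the fusion receptor DC-STAMP. Fibroblasts then wrap the implant in collagen.

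The 3 tumors held 3542368 to 3720818 counts and the 3 scaffolds 5412514 to 6232024 counts. Levels are in CPM, the counts per 1e6 counts of the library. The floor used for genes without counts was 3 counts per library, on average 0.831 CPM in tumors and 0.509 CPM in scaffolds. Pearson's r of log2 levels across genes was 0.948 to 0.964 between tumors, 0.967 to 0.980 between scaffolds and 0.811 to 0.833 between a tumor and a scaffold. The ribosomal RNA fragment CT010467.1 took 3.96% to 5.37% of counts in tumors and 1.63% to 3.13% in scaffolds, and mitochondrial genes took 9.68% to 11.6% and 8.36% to 9.03%. Tumor 20 held the most neutrophil transcripts of the 3 tumors, and tumor 21 and scaffold 12 the most skeletal muscle transcripts of their groups.

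Of the 19068 genes tested, 3366 (17.7%) were higher and 3937 (20.6%) lower in tumors. The call required more than a 2-fold change and, from the quasi-likelihood test of edgeR, a Benjamini-Hochberg adjusted p below 0.05. By the fitted values, 684 of the higher and 1284 of the lower genes changed by more than 8-fold. Genes without counts in 1 group are among them, and their fitted size depends on the prior count and is not a measured size. The 3 tumors and the 3 scaffolds did not overlap in 11564 genes (60.6%). The median log2 fold change over all genes was -0.11, tumor minus scaffold throughout. Members of the gene lists below that had too few counts to be tested, 42 in all, are not in the counts given. The p-values set the difference between the groups against the spread within groups of 3 libraries, which edgeR estimates in part across genes. The smallest p that exact permutation of 1 gene's values can give in this design is 0.1.

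**Figure D1:**
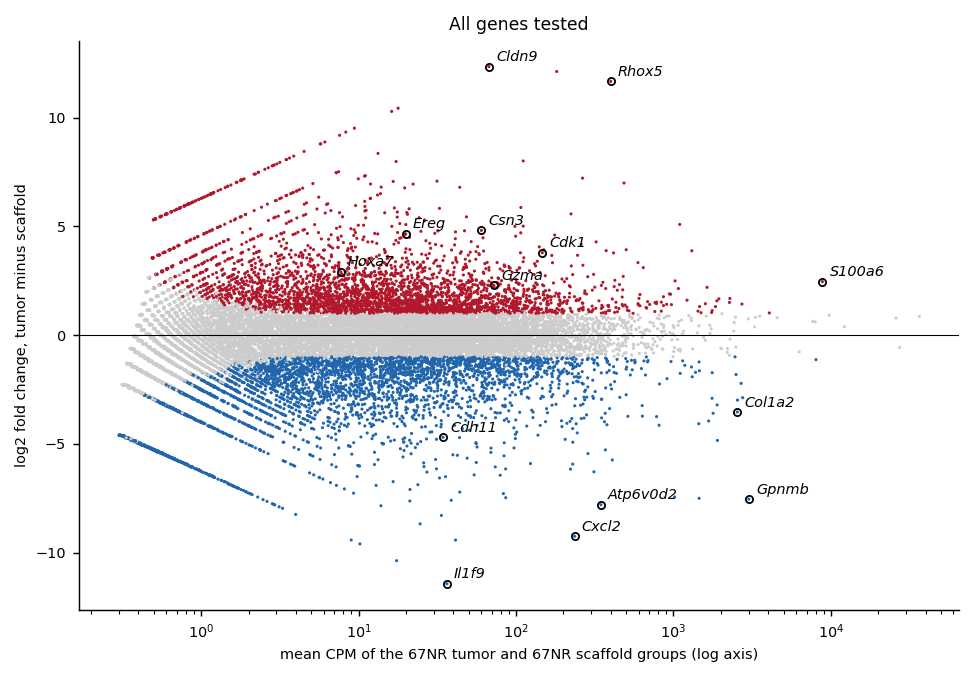
Each point is one of the 19068 genes tested, with its mean level in CPM (log axis) against its log2 fold change, tumor minus scaffold; red genes were higher and blue genes lower past the threshold, and gray genes did not pass. Rhox5 and Cldn9 stand at the top, Il1f9 and Cxcl2 at the bottom, and the lines of points at low levels are genes with no or few counts in one group.

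The largest increases in tumors were in genes that were almost absent from scaffolds. Rhox5, a homeobox gene of the X chromosome best known from the reproductive tract and placenta, was at 653, 889.6 and 852 CPM in tumors 19, 20 and 21 and at 0.185, 0.321 and 0.164 CPM in scaffolds 10, 11 and 12. On the log2 scale the fold change was 11.66 (standard error 0.33, adjusted p = 1.93e-09). Pnma5, a member of the paraneoplastic antigen family, was at 443, 342 and 301 CPM in tumors and had 1 count in the 3 scaffolds together, a ratio of 6453 with an exact 95% counting interval of 1158 to 254948. Cldn9, which encodes a claudin of tight junctions, was at 136, 133 and 134 CPM in tumors and had no counts in scaffolds, at least 264-fold higher than the floor of 3 counts per library. Every tumor lay far above every scaffold for these genes, and the control scaffolds of healthy mice held 0 counts of Rhox5 and Pnma5. Intervals and floors cover counting error only.

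Other transcripts had the same pattern at lower levels. Cyp2c55, a cytochrome P450 that oxidizes fatty acids, was at 28.2, 33.0 and 45.7 CPM in tumors and at 0 in scaffolds, at least 70.0-fold higher. Rgs20, a regulator of G protein signaling, and the noncoding RNA Ptprtos also had no counts in scaffolds and were higher by at least 37.0-fold and 22.4-fold. Sprr1a, a small proline-rich protein of the cornified envelope, was at 36.6, 29.9 and 37.0 CPM in tumors against 2 counts in the scaffolds together (ratio 306, counting interval 84.2 to 2538). Xlr3c was 472 times as high (counting interval 84.0 to 18695), but it belongs to a family of near-identical copies on the X chromosome, and its reads may come from more than one of them. Mir763, counted at 21.0, 7.27 and 17.2 CPM in tumors, lies within the gene Hmga2. Hmga2, a chromatin protein of embryonic and transformed cells that was looked up after the values of Mir763 were seen, was at 658, 442 and 476 CPM in tumors and at 4.06, 4.17 and 2.46 CPM in scaffolds, so the counts assigned to Mir763 may be reads of Hmga2.

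A list of 5 genes had been drawn up as marks of the 67NR line from earlier results on these tumors, so its direction is not independent evidence. All 5 were higher in tumors. Besides Rhox5 and Pnma5 it holds Lncenc1, a long noncoding RNA known from embryonic stem cells, at 331, 171 and 163 CPM in tumors and at 0.370, 1.44 and 0.655 CPM in scaffolds (log2 fold change 8.00, standard error 0.40, adjusted p = 2.33e-08 from edgeR). The gene models 5930409G06Rik and 4930461G14Rik were at 32.4 ± 10.7 CPM (SD, n = 3) and 22.0 ± 0.417 CPM in tumors. Their scaffolds held 0 counts of the first and 2 counts of the second. Summed, the 5 genes came to 1373 to 1491 CPM in tumors, 0.819 to 1.93 CPM in 67NR scaffolds and 0.629 to 1.10 CPM in control scaffolds. Scaffolds of 67NR mice held these transcripts near the level of mice that never received 67NR cells.

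**Figure D2:**
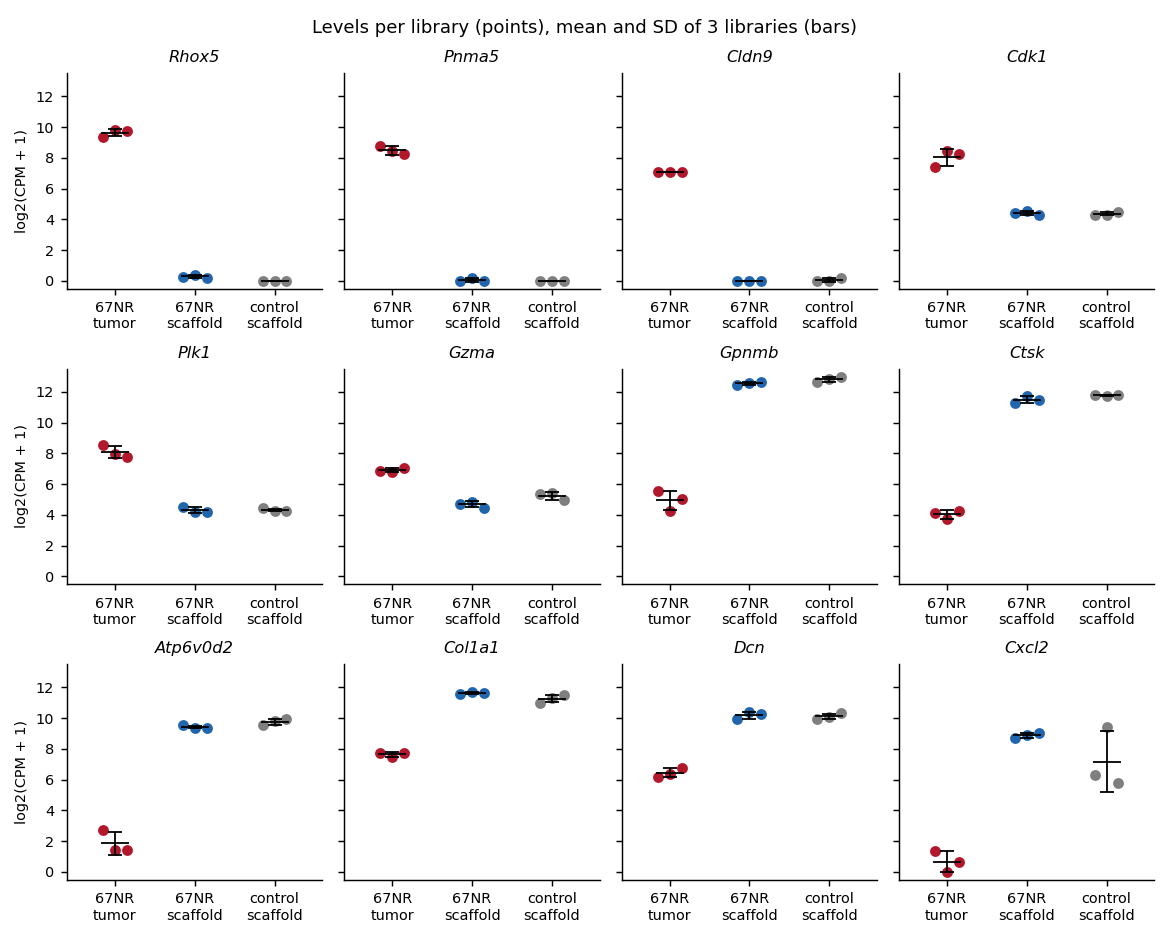
Levels of 12 genes, as log2(CPM + 1), in 67NR tumors (red), 67NR scaffolds (blue) and control scaffolds (gray), with a point for each library and bars for the mean and SD of 3 libraries. In each panel the tumors lie on one side of both sets of scaffolds, above them for Rhox5, Pnma5, Cldn9, Cdk1, Plk1 and Gzma and below them for Gpnmb, Ctsk, Atp6v0d2, Col1a1, Dcn and Cxcl2; control scaffolds vary widely in Cxcl2.

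By amount of RNA, the largest gain in tumors was S100a6, a small calcium-binding protein, at 12265, 17144 and 15203 CPM against 2855, 2824 and 2630 CPM in scaffolds (log2 fold change 2.46, standard error 0.20, adjusted p = 9.16e-07 from edgeR). Lgals1, which encodes galectin-1, a secreted lectin that binds galactosides, was at 3938 ± 1064 CPM (SD, n = 3) in tumors and 1503 ± 162 CPM in scaffolds. Transcripts of the ribosomal proteins Rps26 and Rpl37 rose by 1.68 and 1.02 on the log2 scale, although ribosomal protein genes have many pseudogenes whose reads can be mixed with theirs, and Rpl37 lay at the fold threshold, with 0.99 when libraries were scaled by their totals only and 0.92 without scaffold 12. The small noncoding RNA Bc1 rose from 185, 182 and 147 CPM in scaffolds to 1293, 2885 and 3156 CPM in tumors. Tumor 19 was the lowest of the 3 in Bc1 and also in Atp5g3, a subunit of ATP synthase, with 1208 CPM against 3626 and 3165 CPM, and it was the highest in the repeat-like gene model Gm10800, with 3860 CPM against 545 and 1979 CPM. In the opposite direction Malat1, an abundant nuclear noncoding RNA, was at 5017 ± 1898 CPM in tumors and 11056 ± 1956 CPM in scaffolds (log2 fold change -1.13, adjusted p = 0.00232), a call it lost without tumor 20 (-0.89) and without scaffold 10 (-0.97).

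Genes of cell division rose almost without exception. Of 26 genes of mitosis, 25 were higher in tumors and none lower, with a median log2 fold change of 2.17 beside -0.11 over all genes. For all 26 the tumors did not overlap with the scaffolds, which was also so for 60.6% of all genes. Summed, they came to 3186 to 3292 CPM in tumors, 574 to 726 CPM in 67NR scaffolds and 521 to 617 CPM in control scaffolds. Plk1, a kinase that drives entry into and passage through mitosis, was at 376, 246 and 221 CPM in tumors and at 21.8, 17.5 and 17.0 CPM in scaffolds (log2 fold change 3.92, standard error 0.22, adjusted p = 5.08e-08 from edgeR). Cdk1, the central mitotic kinase, was at 170.1, 345 and 305 CPM against 20.7, 22.1 and 18.2 CPM (3.79, standard error 0.27, adjusted p = 3.33e-07). In both genes every tumor lay far above every scaffold.

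Other steps of division moved the same way by different amounts. Nek2, a kinase of the centrosome, was at 8.87, 26.3 and 48.6 CPM in tumors and 2.77, 2.25 and 2.46 CPM in scaffolds, the widest spread between tumors relative to the mean of these 26 genes. Ube2c, which marks mitotic proteins for destruction, rose by 3.12, Cenpa, the histone of centromeres, by 2.95, Cdc20, an activator of the anaphase-promoting complex, by 2.76, and Birc5 (survivin) by 2.68 on the log2 scale. Top2a, the topoisomerase that untangles chromosomes, rose from 149 ± 6.28 to 690.4 ± 84.5 CPM (SD, n = 3). Mki67, the gene of the Ki-67 antigen, was at 164, 116 and 126 CPM in tumors and at 66.7, 48.9 and 44.2 CPM in scaffolds, a smaller rise of 1.37. The member that did not pass was Kif20a, a mitotic kinesin at 2.22 ± 0.593 and 1.12 ± 0.313 CPM (log2 fold change 0.99, adjusted p = 0.117), low in both tissues, and it passed against control scaffolds (2.02).

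Genes of DNA replication and of ribosome production followed. Of 24 replication genes, 23 were higher and none lower, with a median of 1.99. Cdc45, part of the helicase that opens DNA, was at 43.8, 39.7 and 37.3 CPM in tumors and at 2.59, 2.89 and 3.77 CPM in scaffolds (log2 fold change 3.72, standard error 0.22, adjusted p = 7.63e-08 from edgeR). Tk1, which salvages thymidine, rose by 3.09, and Mcm7, Mcm5 and Mcm2, subunits of the replicative helicase, by 2.63, 2.33 and 2.02. Pcna, the sliding clamp, was at 67.6 ± 11.1 CPM in tumors and 54.0 ± 1.05 CPM in scaffolds and did not pass (adjusted p = 0.104). Of 20 genes of ribosome biogenesis, 10 were higher and none lower (median 1.01). Bop1, needed to mature the large subunit RNA, rose by 2.51 and Fbl, the fibrillarin methyltransferase, by 1.91, while Ncl (nucleolin) had 1117 against 897 CPM and did not pass.

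The promoters of the mitotic genes are shown because the genes moved together. Mitotic promoters are known to carry pairs of CCAAT boxes, bound by the factor NF-Y, and a cell cycle homology region with the letters TTTGAA near the start. The sequences are the 250 bases before the start of the 4 genes below, from the RefSeq promoter table on build GRCm38.p6, written 5′ to 3′ along the gene, with CCAAT or TTTGAA (on the other strand ATTGG or TTCAAA) in capitals. They lie at chr7:122159185-122159434 on the plus strand for Plk1, chr10:69352913-69353162 on the minus strand for Cdk1, chr1:191821223-191821472 on the plus strand for Nek2 and chr2:164769679-164769928 on the plus strand for Ube2c.
Plk1: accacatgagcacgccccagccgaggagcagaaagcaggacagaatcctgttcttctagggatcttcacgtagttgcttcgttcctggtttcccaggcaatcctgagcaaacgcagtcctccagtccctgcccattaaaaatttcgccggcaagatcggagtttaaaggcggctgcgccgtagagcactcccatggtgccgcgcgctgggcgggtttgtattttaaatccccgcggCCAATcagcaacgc
Cdk1: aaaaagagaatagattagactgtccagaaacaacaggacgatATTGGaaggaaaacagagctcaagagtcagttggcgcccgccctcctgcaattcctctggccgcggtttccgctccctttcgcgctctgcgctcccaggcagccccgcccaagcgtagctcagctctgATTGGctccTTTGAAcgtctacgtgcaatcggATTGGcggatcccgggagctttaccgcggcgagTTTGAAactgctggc
Nek2: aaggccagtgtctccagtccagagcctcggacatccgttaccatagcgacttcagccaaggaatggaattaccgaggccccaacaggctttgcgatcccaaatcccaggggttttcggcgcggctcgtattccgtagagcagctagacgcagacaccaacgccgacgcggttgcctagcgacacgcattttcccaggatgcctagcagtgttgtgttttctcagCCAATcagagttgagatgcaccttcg
Ube2c: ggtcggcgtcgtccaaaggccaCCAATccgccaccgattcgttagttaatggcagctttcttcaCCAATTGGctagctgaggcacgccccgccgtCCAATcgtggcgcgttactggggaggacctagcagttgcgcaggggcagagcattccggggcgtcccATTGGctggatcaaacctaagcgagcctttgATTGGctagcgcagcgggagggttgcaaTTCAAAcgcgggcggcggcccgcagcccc

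CCAAT, on either strand, was found within 250 bases before the start in 20 of the 22 higher mitotic genes that the table holds, 90.9% of them. The share was 39.9% of the 12422 tested genes in the table, 44.9% of the 2278 higher genes and 37.5% of all 27025 genes. TTTGAA, on either strand, was found in 8 of the 22 genes (36.4%), compared with 14.1% of the tested genes, 14.5% of the higher genes and 18.3% of all genes. Plk1 and Nek2 each show a single CCAAT close to the start and no TTTGAA, whereas Cdk1 and Ube2c show several CCAAT on either strand, and 1 stretch of Ube2c holds overlapping matches of both strands. A match is a description of letters and not a binding site, and the list was chosen with its rise in tumors known.

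The tumors carried few transcripts of the epithelial genes listed here, a choice that leaves out Cldn9 and Sprr1a, described above. Of 12 tested genes of simple epithelium, 1 was higher (8.33%, beside 17.7% of all genes) and none lower (beside 20.6%), with a median of 0.03. The sum of the list was 25.1 to 49.0 CPM in tumors, 22.0 to 61.6 CPM in 67NR scaffolds and 23.4 to 109 CPM in control scaffolds. Epcam, a surface protein of epithelial cells, was at 4.84, 6.99 and 2.26 CPM in tumors and at 2.77, 3.21 and 8.35 CPM in scaffolds. Krt8 and Krt18, the keratins of simple epithelia, were at 1.38 ± 0.557 and 3.51 ± 0.499 CPM in tumors, and tumors and scaffolds overlapped in both. Cldn4, the member that rose, was at only 3.49, 2.80 and 1.41 CPM. Genes of basal epithelium and epidermis were also low, 20.1 to 53.6 CPM summed in tumors and 13.1 to 27.5 CPM in scaffolds. Of 11, 2 were higher (18.2%, near the 17.7% of all genes) and none after tumor 21 was left out.

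Of the milk genes, Csn3, which encodes kappa casein, rose from 0.739, 0.963 and 10.8 CPM in scaffolds to 66.9, 135 and 147 CPM in tumors (log2 fold change 4.81, standard error 0.64, adjusted p = 5.50e-05 from edgeR). Glycam1, a mucin of milk and of lymph node vessels, fell to 2.15, 0 and 0.282 CPM from 21.6, 9.63 and 9.83 CPM. The other 6 milk and mammary genes tested did not pass. Of 12 genes of the mesenchymal state 2 (16.7%) were higher and 3 (25.0%) lower, near the shares of all genes (17.7% and 20.6%). Cdh2 (N-cadherin) and the transcription factor Twist2 rose by 1.91 and 2.15 on the log2 scale, whereas Cdh11, a cadherin of stromal cells, Prrx2 and Zeb2 fell by 4.69, 3.64 and 2.15. Vim (vimentin), at 1732 ± 482 CPM in tumors and 1683 ± 165 CPM in scaffolds, did not pass.

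The largest decreases as a group were in genes of multinucleated giant cells. Of 17 tested genes of giant cells and macrophage fusion, 16 were lower in tumors and none higher, with a median log2 fold change of -5.28 (-4.07 with genes at 0 counts set to their bound) beside -0.11 over all genes. The list summed to 1148 to 1218 CPM in tumors, 16607 to 18284 CPM in 67NR scaffolds and 18650 to 21348 CPM in control scaffolds. Gpnmb, a glycoprotein of lysosome-rich macrophages, was at 45.4, 18.5 and 31.6 CPM in tumors and at 5572, 6051 and 6354 CPM in scaffolds (log2 fold change -7.54, standard error 0.31, adjusted p = 8.05e-09 from edgeR). Ctsk, the collagen-cutting protease cathepsin K, was at 16.4, 12.3 and 18.3 CPM against 2474, 3375 and 2832 CPM (-7.50, standard error 0.25, adjusted p = 2.88e-09). Every tumor lay far below every scaffold in both genes, and control scaffolds were at 6407, 7453 and 7821 CPM of Gpnmb.

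The parts of the acid and fusion machinery were lower as well. Atp6v0d2, the subunit of the proton pump that osteoclasts and giant cells use, was at 5.64, 1.68 and 1.69 CPM in tumors and at 736, 662 and 669 CPM in scaffolds (log2 fold change -7.80, standard error 0.32, adjusted p = 8.05e-09 from edgeR). Dcstamp, which encodes the fusion receptor DC-STAMP, had 0, 2 and 2 counts in the tumors and was at 44.7, 53.6 and 43.4 CPM in scaffolds, and its partner Ocstamp fell by 4.07 on the log2 scale. Oscar and Calcr, receptors of osteoclasts, had no counts in tumors, Oscar being at least 4.76-fold and Calcr at least 2.38-fold lower than in scaffolds. Mmp12, the elastase of macrophages, fell by 7.44, Itgax (CD11c) by 6.16 and Mmp9 by 4.30. Acp5, tartrate-resistant acid phosphatase, fell by 5.28, and Trem2, a lipid receptor, fell by 3.54. Spp1 (osteopontin) fell less, to 524, 541 and 559.8 CPM from 2355, 1679 and 2230 CPM. Itgav (integrin αV) was at 31.8 ± 3.30 and 53.4 ± 12.1 CPM and did not pass.

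Genes of lysosomes and lipid handling went the same way, with 16 of 21 lower, none higher and a median of -2.88. Lpl, which releases fatty acids from lipoproteins, was at 153, 113 and 113 CPM in tumors and at 3440, 3874 and 3716 CPM in scaffolds (log2 fold change -4.84, standard error 0.19, adjusted p = 7.95e-09 from edgeR). The fatty acid receptor Cd36 fell by 3.98. The lysosomal proteases Ctsd, Ctss, Ctsl and Ctsb fell by 3.21, 2.90, 2.88 and 2.22, and Lgals3 (galectin-3) by 2.99 from 4538 ± 712 to 562 ± 4.49 CPM (SD, n = 3). Lgmn, a lysosomal protease that cuts after asparagine, was at 297, 563 and 504 CPM in tumors and 411, 345 and 358 CPM in scaffolds, where the groups overlapped.

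General macrophage genes did not move as one. Of 17, 3 (17.6%) were higher and 5 (29.4%) lower, beside 17.7% and 20.6% of all genes, with a median of -0.45. Cd68, a protein of macrophage lysosomes, fell by 3.38, Mertk, a receptor for dying cells, by 3.29, and Lyz2 (lysozyme) from 3887, 3878 and 3957 CPM to 871, 1264 and 1123 CPM. The growth factor receptor Csf1r was at 386, 313 and 259.7 CPM in tumors and 462, 429 and 442 CPM in scaffolds, and the mannose receptor Mrc1 at 416, 435 and 450.0 CPM and 366, 402 and 383 CPM. Neither passed, at log2 fold changes of -0.45 and 0.20, although their groups did not overlap. Fcgr1, the high-affinity Fc receptor, rose by 1.61, from 12.7, 13.2 and 11.0 CPM to 31.4, 40.3 and 38.7 CPM. Cd163 (1.20) and the transcription factor Maf (1.00) also rose, but Cd163 was at 0.82 without tumor 19 and Maf lay at the fold threshold, with 0.90 without tumor 21.

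**Figure D3:**
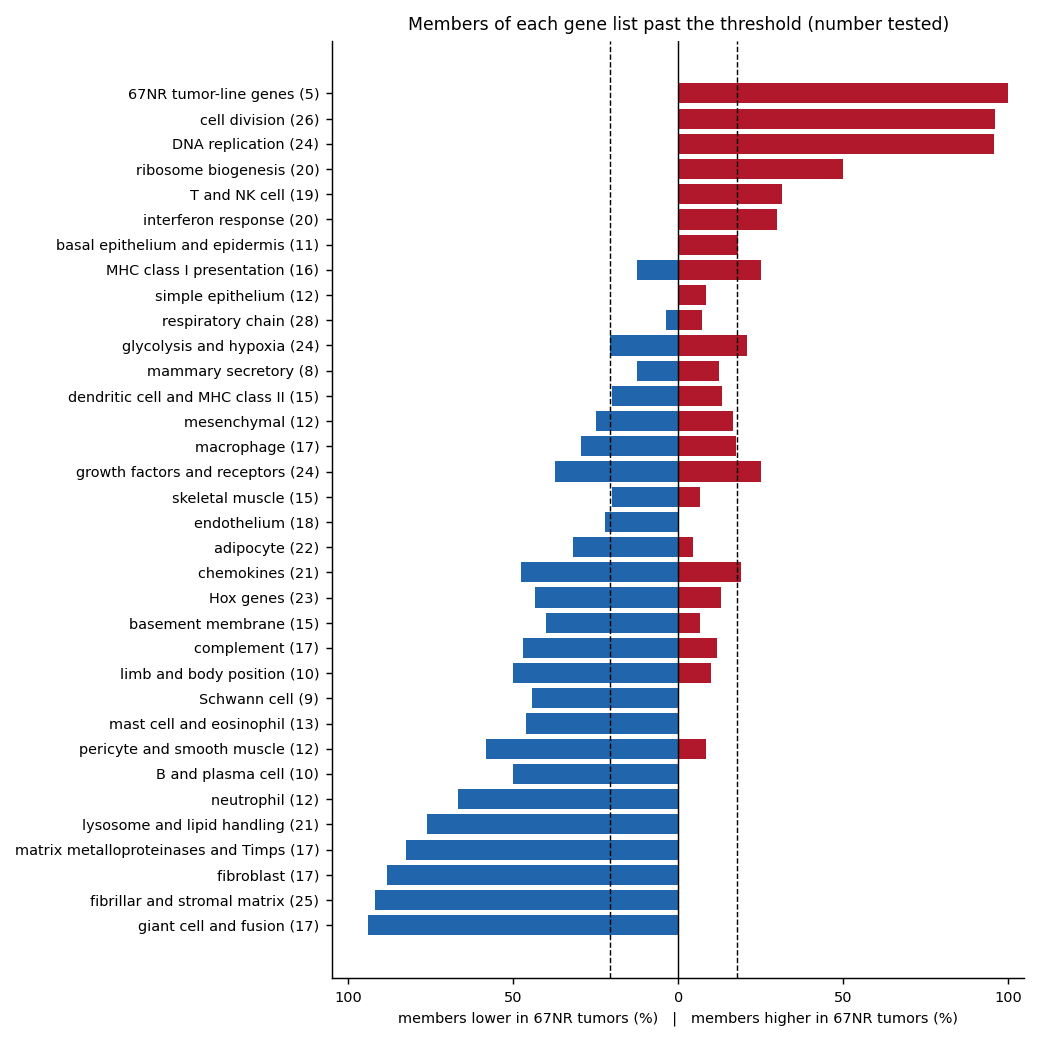
Share of the tested members of each gene list that were higher (red, to the right) or lower (blue, to the left) in 67NR tumors past the threshold, in percent, with the number tested in brackets; dashed lines mark the shares over all genes tested, 17.7% higher and 20.6% lower. Cell division and DNA replication lie furthest to the right besides the 67NR tumor-line genes, and giant cells, fibrillar matrix and fibroblasts furthest to the left.

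Collagen and the other proteins of fibrous matrix were far lower in tumors. Of 25 genes, 23 were lower and none higher, with a median of -3.14, and the list summed to 3331 to 3959 CPM in tumors, 18925 to 20009 CPM in 67NR scaffolds and 14525 to 17877 CPM in control scaffolds. Col1a1, a chain of type I collagen, was at 217, 173 and 212 CPM in tumors and at 3017, 3297 and 3123 CPM in scaffolds (log2 fold change -3.95, standard error 0.18, adjusted p = 1.11e-08 from edgeR). Its partner chain Col1a2 was at 292, 429 and 466 CPM against 4564, 4979 and 4536 CPM, and Col3a1 fell by 3.59. Fbn1 (fibrillin-1) fell by 3.81, Col12a1 by 4.95 and Fn1 (fibronectin) by 1.39. Fmod (fibromodulin), which binds collagen fibrils, had 1 count in each tumor and was at 12.7, 12.0 and 8.84 CPM in scaffolds, a ratio of 40.3 with a counting interval of 13.6 to 197. The members that did not pass were Sparc, at 1593 ± 204 against 2797 ± 607 CPM, and Eln (elastin).

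Fibroblast genes fell with the matrix. Of 17, 15 were lower and none higher, with a median of -2.43. Dcn (decorin), a proteoglycan of collagen, was at 71.2, 82.8 and 108 CPM in tumors and at 981, 1324 and 1243 CPM in scaffolds (log2 fold change -3.73, standard error 0.22, adjusted p = 6.72e-08 from edgeR). Scara5, a ferritin receptor of fibroblasts, fell by 4.72, Lum (lumican) by 4.46 and Fap, a surface protease of activated fibroblasts, by 3.81. Dpt, Pdgfrb and Pdgfra fell less, by 2.10, 1.88 and 1.75.

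Of 17 matrix metalloproteinases and their inhibitors, 14 were lower and none higher (median -2.62). Mmp13, a collagenase, was at 4.57, 3.64 and 3.67 CPM in tumors and at 254, 201 and 274 CPM in scaffolds, and Mmp3, Mmp2 and Mmp14 fell by 4.50, 2.94 and 1.63 on the log2 scale. Of 15 basement membrane genes, 6 (40%) were lower and 1 (6.67%) higher, beside 20.6% and 17.7% of all genes (median -0.63). Lama2 and Nid1, the laminin chain of muscle and nerve and the linker nidogen, fell by 2.97 and 2.29. Lama5, the laminin chain of most epithelia and vessels, rose from 2.77, 3.69 and 2.62 CPM to 23.4, 20.4 and 18.9 CPM (log2 fold change 2.80, standard error 0.25, adjusted p = 1.90e-06 from edgeR).

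Inflammatory genes of neutrophils were low in tumors. Cxcl2, a chemokine that draws neutrophils, was at 1.61, 0 and 0.565 CPM in tumors and at 409, 477 and 526 CPM in scaffolds (log2 fold change -9.25, standard error 0.38, adjusted p = 8.05e-09 from edgeR). Il1f9, the cytokine IL-36γ, had no counts in tumors and was at 64.5, 78.8 and 74.8 CPM in scaffolds, at least 87.5-fold lower. Control scaffolds differed among themselves in both genes, with Cxcl2 at 78.9, 697 and 53.4 CPM and Il1f9 at 15.7, 111 and 7.24 CPM. Cxcr2, the receptor of Cxcl2 on neutrophils, fell by 3.45. S100a8 and S100a9, the subunits of calprotectin, fell by 2.82 and 3.17, but S100a8 was at 11.8, 201 and 8.19 CPM in the tumors, with tumor 20 far above the others, and at 564, 562 and 494 CPM in scaffolds. S100a8 lost its call with DESeq2 (adjusted p = 0.0664), without scaffold 10 (0.0517) and against control scaffolds (0.0518). Of 12 neutrophil genes, 8 (66.7%, beside 20.6% of all genes) were lower, with a median of -2.46, and 4 without scaffold 10 or with DESeq2. Summed, the list came to 24.8 to 390 CPM in tumors and 1043 to 1176 CPM in 67NR scaffolds. Control scaffolds, at 286 to 1831 CPM, overlapped with the tumors.

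Other genes with the largest decreases have no common role. Prss46, a serine protease, and Tnmd (tenomodulin), a membrane protein of tendon, had no counts in tumors, at least 24.5-fold lower for Prss46 and at least 21.6-fold for Tnmd than in scaffolds, where they were at 20.4 ± 2.43 and 18.0 ± 8.64 CPM. Bex1, an adaptor known from neurons, had 1 count in the 3 tumors and was at 108, 63.4 and 76.5 CPM in scaffolds, a ratio of 882 with a counting interval of 158 to 34847. Mt3, a metallothionein, and Slc39a2, a zinc importer, were lower by ratios of 525 and 361. Prss50, a protease known from the testis, and Slc9b2, a sodium and proton exchanger of osteoclasts, were lower by ratios of 299 and 229. Each of these genes was also present in control scaffolds, Slc39a2 at 67.1, 52.6 and 64.9 CPM and Tnmd, lower there, at 6.92, 13.1 and 6.30 CPM.

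Of 19 genes of T and NK cells, 6 (31.6%, beside 17.7% of all genes) were higher in tumors and none lower, with a median of 0.51, and 13 did not pass. Gzma, a protease of killer cell granules, was at 116, 111 and 131 CPM in tumors and at 24.8, 28.2 and 21.3 CPM in scaffolds (log2 fold change 2.29, standard error 0.17, adjusted p = 4.72e-07 from edgeR). Gzmb rose by 3.59, the shared cytokine receptor chain Il2rb by 1.96, and Prf1 (perforin) by 1.61. Nkg7, a granule protein, rose by 1.48, from 4.82 ± 0.529 to 13.3 ± 1.98 CPM, but by 0.99 against control scaffolds, which did not pass. The natural killer receptor Ncr1, at 27.4, 22.7 and 19.2 CPM in tumors and 15.2, 17.7 and 18.3 CPM in scaffolds, did not pass. Neither did the T cell genes Cd3e, at 0.56 to 3.49 CPM in tumors, and Cd4, although Cd4 passed without tumor 20 (1.09), without scaffold 11 (1.20) and against control scaffolds (1.61).

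H2-Aa, a chain of MHC class II, was at 799.6, 725 and 525 CPM in tumors and 186, 390.2 and 207 CPM in scaffolds, while 2 of 15 genes of the dendritic cell and class II list were higher (13.3%) and 3 lower (20.0%), near the shares of all genes. H2-Q4, a class I gene with near-identical relatives whose reads may be shared, rose by 2.11. Of 16 class I genes, 4 (25%) were higher and 2 (12.5%) lower, beside 17.7% and 20.6% of all genes. H2-K1 and B2m, the classical heavy chain and its light chain, were at 353 ± 56.0 against 214 ± 49.5 CPM and 1564 ± 410.2 against 2426 ± 83.9 CPM, and neither passed. Of 20 interferon-response genes, 6 (30%, beside 17.7% of all genes) were higher and none lower. Isg15, a ubiquitin-like protein, was at 182, 279 and 241 CPM in tumors and 77.8, 63.5 and 58.8 CPM in scaffolds, and Mx1, Ifit3 and Irf7 rose by 1.79, 1.43 and 1.19. Against control scaffolds, whose levels were higher, 2 of the 20 passed, and Ifit3 (0.87) and Irf7 (0.77) did not.

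Of 21 chemokines, 4 (19%) were higher, near the 17.7% of all genes. Lower were 10 (47.6%), beside 20.6% of all genes. Ccl5, a ligand for T and NK cells, rose from 25.3, 34.3 and 24.7 CPM to 189, 160.0 and 131 CPM (log2 fold change 2.53, standard error 0.19, adjusted p = 4.99e-07 from edgeR). Ccl12, a monocyte ligand, rose by 3.40, Cx3cl1 (fractalkine) by 2.76 and the interferon-induced Cxcl10 by 1.89. Ccl3, made by activated macrophages, fell by 4.71, from 82.8, 77.2 and 93.0 CPM to 2.96, 3.36 and 3.11 CPM. The eosinophil ligand Ccl11 fell by 4.62 and Cxcl5 by 2.99. Hdc, which makes histamine, fell by 4.27, and Siglecf and Ccr3, receptors of eosinophils, by 3.71 and 1.82, whereas the mast cell protease Cpa3 was at 21.5, 17.6 and 20.6 CPM against 23.3, 27.4 and 28.5 CPM and did not pass. Of 13 mast cell and eosinophil genes 6 (46.2%) were lower, and of 10 B and plasma cell genes 5 (50%) were lower, among them Cd22 by 2.78. The last count was 1 without scaffold 10 and 2 without tumor 20.

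Of 17 complement genes, 8 (47.1%) were lower and 2 (11.8%) higher, beside 20.6% and 17.7% of all genes. Their median was -1.73, and 7 did not pass. C3, the central component, fell to 44.1, 19.6 and 24.3 CPM from 386, 404 and 479 CPM, and its upstream inhibitor Serping1 by 3.98. C6, a component of the membrane pore, and C5ar1, the receptor for the fragment C5a, rose by 2.34 and 1.14.

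Among growth factors and receptors, ligands of the EGF receptor rose while the receptor itself fell. Ereg (epiregulin) was at 33.3, 39.2 and 42.3 CPM in tumors and at 2.03, 1.12 and 1.47 CPM in scaffolds (log2 fold change 4.65, standard error 0.27, adjusted p = 6.66e-08 from edgeR). Hbegf rose by 3.09, from 22.6 ± 3.41 to 188 ± 34.6 CPM. Egfr was at 3.49, 2.80 and 5.08 CPM in tumors and at 39.5, 44.8 and 44.5 CPM in scaffolds, and its relative Erbb2 rose by 1.88 at low levels. The receptors Axl and Igf1r rose by 2.22 and 1.47, whereas the stromal ligands Igf1, Fgf7 and Hgf fell by 2.57, 4.03 and 2.52. Over the list, 6 of 24 (25%) were higher and 9 (37.5%) lower, beside 17.7% and 20.6% of all genes.

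Hox genes record position along the body in adult tissue. Of 23 tested Hox genes, 3 (13%) were higher and 10 (43.5%) lower, beside 17.7% and 20.6% of all genes. Hoxa7 was at 18.3, 12.0 and 10.4 CPM in tumors and at 2.59, 1.12 and 1.80 CPM in scaffolds, and Hoxa5 rose by 1.96. Hoxc10 had 4, 2 and 5 counts in tumors and none in scaffolds, at least 1.99-fold higher. These counts are near the floor of 3 counts per library, and the bound is below the 2-fold threshold. Hoxd4 fell from 23.1, 24.6 and 20.3 CPM to 9.41, 1.12 and 2.26 CPM, Hoxc4 by 2.87, and Hoxb2 had 1 count in the 3 tumors. Without tumor 20, 5 Hox genes were lower in place of 10. Of 10 other position genes, Zic1 had no counts in tumors against 9.05, 5.94 and 4.75 CPM, and Tbx3, a regulator of mammary gland formation, rose by 1.21. Of the 10, 5 (50%) were lower and 1 (10%) higher, with 3 lower without scaffold 10 or scaffold 12.

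Of 24 genes of glycolysis and hypoxia 5 were higher and 5 lower, with a median of -0.44, and each share, 20.8%, was near that of all genes (17.7% and 20.6%). Egln3, an oxygen sensor that is itself induced by hypoxia, was at 30.9, 30.5 and 25.7 CPM in tumors and 2.96, 4.33 and 3.11 CPM in scaffolds (log2 fold change 3.08, standard error 0.24, adjusted p = 5.51e-07 from edgeR). Adm (adrenomedullin), the glycolytic enzyme Pfkl, Car9 (carbonic anhydrase 9) and Vegfa, which drives vessel growth, rose by 1.94, 1.83, 1.78 and 1.10. In the opposite direction, the lactate exporter Slc16a3 was at 1.88, 3.36 and 3.39 CPM in tumors and 41.0, 39.8 and 49.5 CPM in scaffolds, and P4ha2, Pfkp and Pdk1 fell by 2.43, 2.41 and 1.66. The first steps and the last step of glycolysis, the glucose transporter Slc2a1, hexokinase Hk2 and lactate dehydrogenase Ldha, had log2 fold changes of -0.42, -0.57 and -0.65 and did not pass. Of 28 genes of the respiratory chain, 2 (7.14%) were higher, Ndufb10 and Cyc1, and 1 (3.57%) lower.

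Genes of vessels, nerve, fat and muscle were mixed. Of 18 endothelial genes, 4 were lower (22.2%, beside 20.6% of all genes), among them Tek by 1.81 and Vwf by 1.55. Of 12 genes of pericytes and smooth muscle 7 (58.3%) were lower and 1 (8.33%, beside 17.7% of all genes) higher. Rgs5, of pericytes, was at 131, 118 and 134 CPM in tumors and 323, 330.2 and 312 CPM in scaffolds, Acta2 (smooth muscle actin) fell by 2.65 and Cspg4 by 2.33, and Des (desmin) rose by 1.77. The myelin gene Mbp fell by 2.59, with 4 of 9 Schwann cell genes (44.4%) lower. In the fat list 7 of 22 (31.8%) were lower and 1 (4.55%) higher, and 4 were lower without tumor 20 or without scaffold 12. Pparg and Cebpa, regulators of fat cells, fell by 2.52 and 1.24, and Dgat2, an enzyme of fat synthesis, rose by 1.81. Of 15 skeletal muscle genes 3 (20%, near the share of all genes) were lower and 1, the enolase Eno3, higher by 2.45. Without tumor 21, which held more muscle transcripts than the other tumors, 8 were lower.

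The 9 genes that the study chose to tell 4T1 disease apart at the scaffold (10 symbols here, since 1 member appears in its text under both Fhl1 and Fth1) were also compared between 67NR tumors and scaffolds. They were chosen for scaffolds of the 3 lines and not for this contrast. Slc1a3, a glutamate transporter, was at 1.61, 2.52 and 1.98 CPM in tumors and 10.5, 15.1 and 17.0 CPM in scaffolds (log2 fold change -2.77, adjusted p = 2.10e-05 from edgeR). Ifitm1, Fhl1, Spon2 and Soga1 fell by 2.29, 1.81, 1.78 and 1.03, but Soga1 lost its call without tumor 20 (-0.89), tumor 21 (-0.85) or scaffold 10 (-0.90) and against control scaffolds (-0.98). Dusp12, Pja2, Dhx9, Ndufs1 and Fth1, the ferritin heavy chain, did not pass, with log2 fold changes of 0.98, 0.48, 0.41, -0.40 and -0.62. Dusp12 passed without tumor 20 (1.05), tumor 21 (1.10) or scaffold 12 (1.01).

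Whether the tumor-scaffold difference of 67NR departed from that of its sister lines was tested as a difference of differences, over 23778 genes in 18 libraries, 3 tumors and 3 scaffolds of each line. Both tests use the same 67NR libraries, so they are not independent of each other. Some libraries of the 4T07 and 4T1 mice held transcripts of the genes described at the end. Those genes were chosen as present in 67NR tumors and nearly absent from control tissues. Rhox5 was at 47.5 CPM in 4T07 scaffold 22 against 5.11 and 1.40 CPM in 4T07 scaffolds 23 and 24, and at 13.7 CPM in 4T1 scaffold 34, whereas 67NR scaffolds held at most 0.321 CPM. The cause was not tested, and several results that move without scaffold 22 are given with and without it. For the 5 tumor-line genes, the median difference of 67NR from 4T07 was 10.41 with all libraries and 9.00 without scaffold 22. All 5 stayed larger than both lines. They were listed as marks of 67NR from earlier results on these tumors, so this is not independent evidence.

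The 67NR difference was larger than that of 4T07 in 1820 genes (7.65%) and smaller in 2348 (9.87%), and larger than that of 4T1 in 1257 (5.29%) and smaller in 1717 (7.22%). Larger than both were 844 genes (3.55%), and smaller than both 1184 (4.98%). Scaling by library totals only gave 1295 larger and 2982 smaller against 4T07, 964 and 2092 against 4T1 and 590 and 1510 against both. That scaling moved the median difference over all genes from -0.19 to -0.40 against 4T07 and from -0.16 to -0.30 against 4T1, so the split between larger and smaller depends on it. Without 4T07 scaffold 22, 1511 genes were larger than in 4T07. Cldn9, whose difference from 4T07 was 11.72, was at 6.26 (adjusted p = 1) without it, and its difference from 4T1 lost its call without 4T1 scaffold 34 (adjusted p = 0.107) or 36 (0.109).

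**Figure D4:**
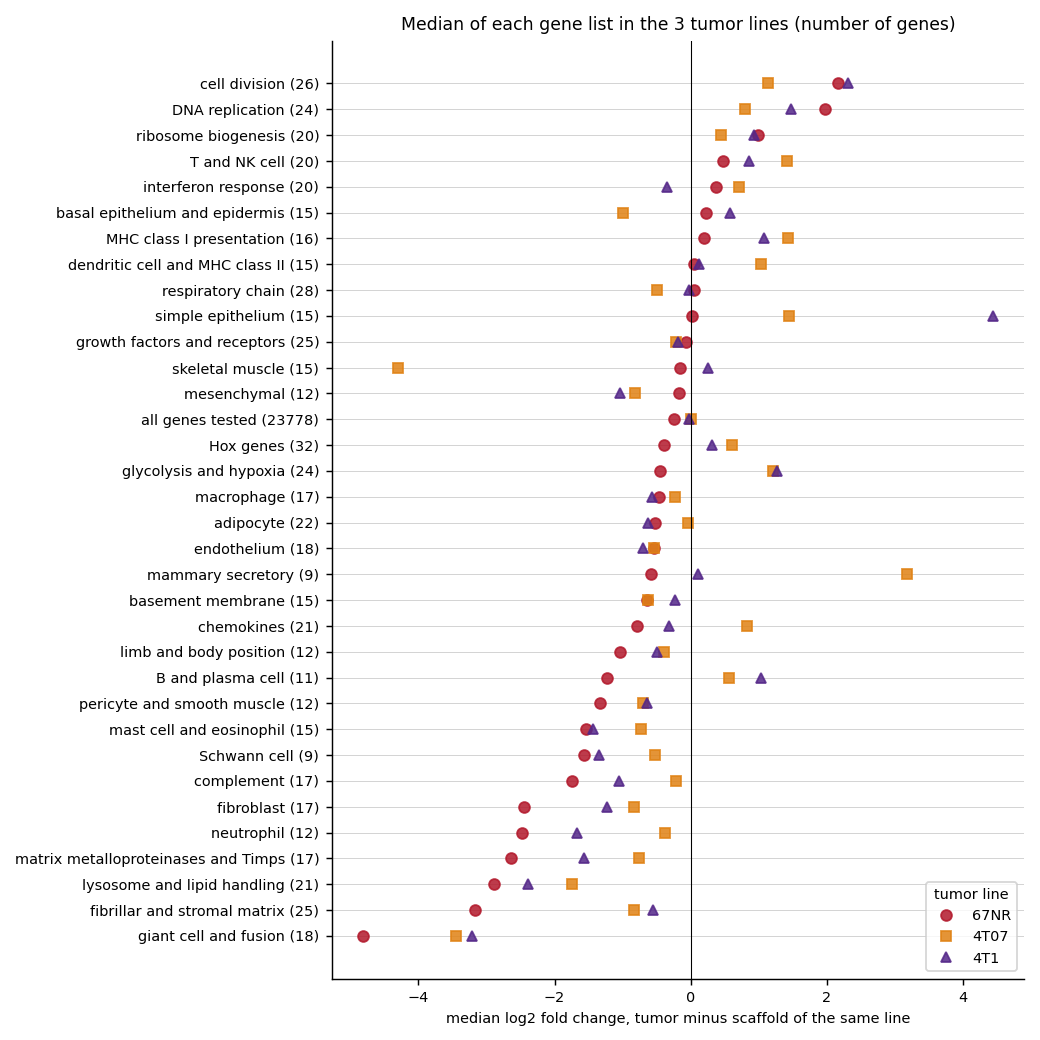
Median log2 fold change, tumor minus scaffold of the same line, of each gene list in 67NR (red circles), 4T07 (orange squares) and 4T1 (purple triangles), with the number of genes in brackets. The 67NR medians lie to the left of both other lines for fibrillar matrix, fibroblast, metalloproteinase, giant cell, and glycolysis and hypoxia genes.

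Fibrous matrix genes set 67NR apart from both lines. Their median was -3.16 in 67NR, -0.83 in 4T07 and -0.55 in 4T1, and in 16 of 25 genes the 67NR difference was smaller than both, against 4.98% of all genes. Col1a1 was at 200.4 ± 24.0 (SD, n = 3), 1576 ± 361 and 2086 ± 378 CPM in tumors of 67NR, 4T07 and 4T1, while the scaffolds of the 3 lines were at 3146 ± 142, 3075 ± 523 and 3241 ± 534 CPM. Its 67NR difference was 2.80 below that of 4T07 (adjusted p = 4.42e-07) and 3.19 below that of 4T1 (adjusted p = 8.58e-08, both from edgeR's quasi-likelihood test). Tnc (tenascin C), a matrix protein of remodeling tissue, was at 6.80 ± 1.38, 73.2 ± 20.0 and 275 ± 67.9 CPM in the 3 kinds of tumor, and at 48.6 ± 1.91, 46.9 ± 2.68 and 41.2 ± 6.79 CPM in their scaffolds. The scaffolds therefore lay close together in both genes, and the tumors did not. Fibroblast genes had medians of -2.45, -0.83 and -1.23, with 9 of 17 smaller than both.

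Glycolysis and hypoxia genes also separated the lines. Their median was -0.45 in 67NR, 1.21 in 4T07 and 1.27 in 4T1. Of 24, 14 were smaller in 67NR than in both and 1 larger, beside 4.98% and 3.55% of all genes. Hk2 (hexokinase 2) was at 68.1 ± 2.37, 782 ± 192 and 466 ± 115 CPM in tumors of 67NR, 4T07 and 4T1, and at 103 ± 8.28, 112 ± 20.6 and 93.0 ± 19.5 CPM in the scaffolds. Pdk1, which keeps pyruvate out of mitochondria, had log2 fold changes of -1.67, 2.44 and 1.58 in the lines in that order, with differences of -4.11 (adjusted p = 8.83e-10) and -3.26 (adjusted p = 2.93e-08). Without 4T07 scaffold 22, 15 matrix genes and 14 genes of glycolysis and hypoxia were smaller in 67NR than in both lines.

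**Figure D5:**
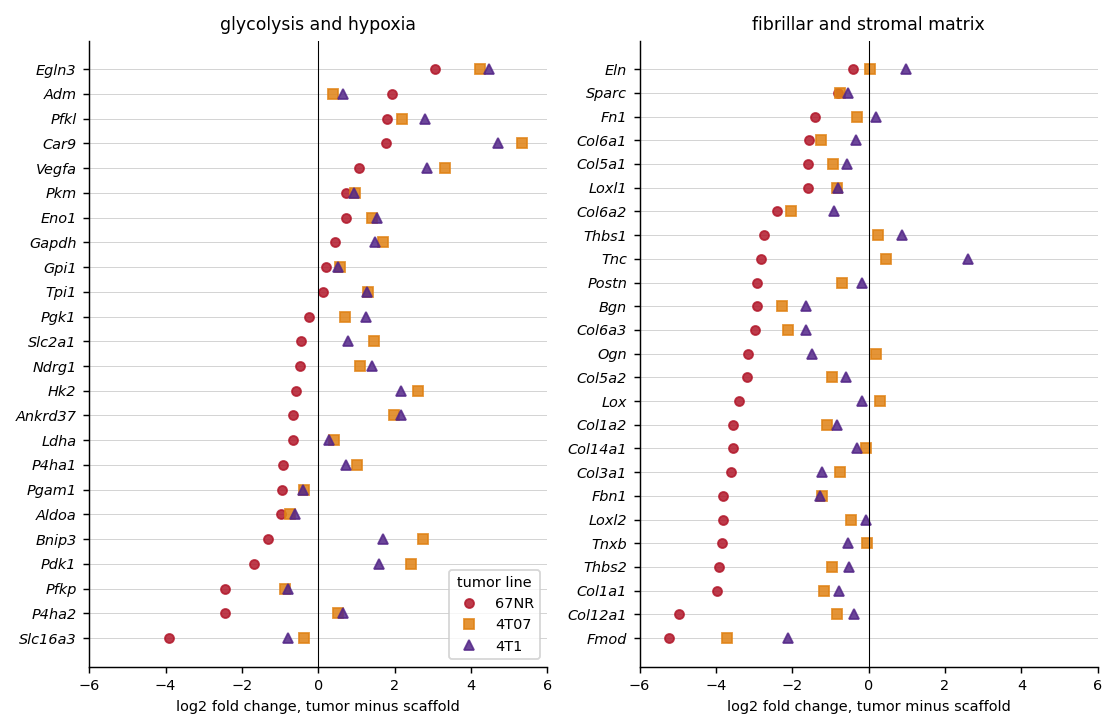
Log2 fold change, tumor minus scaffold of the same line, of each gene of glycolysis and hypoxia (left) and of fibrous matrix (right) in 67NR (red circles), 4T07 (orange squares) and 4T1 (purple triangles). The 67NR point lies to the left of both other lines for each gene except Adm; 14 of the 24 and 16 of the 25 differences passed the test against both lines.

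Epithelial genes differed mainly from 4T1. Their median was 0.02 in 67NR, 1.45 in 4T07 and 4.44 in 4T1. Of 15, 4 were smaller in 67NR than in both, beside 4.98% of all genes. Krt18 was at 3.51 ± 0.499, 63.7 ± 18.4 and 449 ± 83.7 CPM in the tumors of the 3 lines, with differences of -2.92 from 4T07 and -6.25 from 4T1. The first of these was -1.22 (adjusted p = 0.217) without 67NR scaffold 12. Cell division genes had medians of 2.16, 1.14 and 2.31. In 9 of 26 the 67NR rise was larger than that of 4T07, beside 7.65% of all genes. In none was it larger than that of 4T1, beside 5.29% of all genes. The median difference from 4T07 was 0.97 with all libraries and 0.25 without 4T07 scaffold 22.

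Among single genes, Gzma was higher in 67NR tumors, at 119 ± 10.3 CPM against 25.7 ± 2.82 and 5.96 ± 0.296 CPM in those of 4T07 and 4T1, with differences of 2.54 and 4.20 (adjusted p = 5.02e-07 and 9.20e-10). The T and NK cell list, which holds Gzma, did not share this pattern as a whole. Its median log2 fold change, tumor minus scaffold, was lower for 67NR (0.47) than for 4T07 (1.42) or 4T1 (0.86). Only 2 of its 20 genes had a 67NR difference larger than both other lines, and 0 had a smaller one. Ereg was at 38.3 ± 4.57, 1.91 ± 0.413 and 2.71 ± 0.835 CPM in the 67NR, 4T07 and 4T1 tumors, with differences of 4.86 and 4.40. In the opposite direction, Hhip, which binds hedgehog ligands, was at 0.463 ± 0.326, 59.1 ± 27.1 and 79.2 ± 15.4 CPM in tumors of 67NR, 4T07 and 4T1. Sema3e, a guidance signal for vessels and axons, was at 0.370 ± 0.164, 28.2 ± 8.12 and 28.1 ± 5.33 CPM, and the magnesium transporter Nipal2 at 0.0896 ± 0.155, 13.7 ± 2.98 and 16.8 ± 2.07 CPM. Ibsp (bone sialoprotein) had no counts in 67NR tumors and was at 1.91 ± 1.44 and 72.1 ± 17.0 CPM in 4T07 and 4T1 tumors, and its difference from 4T07 lost its call without 67NR scaffold 10 (adjusted p = 0.167).

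Genes of 67NR tumors that control tissues nearly lacked, called tumor-only genes here, also served to look for tumor transcripts elsewhere in 67NR mice. Of the genes with a mean of at least 20 CPM in 67NR tumors, 9 had at most 3 counts over the 9 control libraries. They came to 5252 to 5411 summed counts in each tumor, and to 3, 7 and 5 counts in 67NR scaffolds 10, 11 and 12. Spleens of 67NR mice held 2, 0 and 1 counts. Lungs held 3, 9 and 44, and 38 of the 44 counts were Sprr1a, which is also a gene of squamous epithelium. The genes were chosen for their near absence from the control libraries, so the controls give no independent background for these counts. Rhox5, the most abundant of them, had 1, 2 and 4 counts in the lungs and none in the spleens. Tumors of the other lines were not part of the choice. In 4T07 tumors Gm14124 was at 19.2 CPM and Cyp2c55 at 12.6 CPM, against 23.6 and 35.7 CPM in 67NR tumors. The other tumor-only genes were at 9.14 CPM or less in 4T07 tumors.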

How the data were processed

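RNA was sequenced from scaffold, lung, spleen and primary tumor with a 3′ tag kit that adds unique molecular identifiers. The authors deposited raw counts per gene for 45 libraries in a single table. The submitters' processing notes name Trim Galore 0.5.0, STAR 2.6.0 and featureCounts; the genome build, the annotation and whether reads were collapsed by molecular identifier are not given in the sources used here. Of 55487 lines, 120 repeated a symbol and were summed with it. Genes with more than 10 counts over the libraries compared were tested with edgeR 4.0.16 in R 4.3.3 (quasi-likelihood fit, TMM scaling, no pairing). A gene was called where the Benjamini-Hochberg adjusted p was below 0.05 and the change exceeded 2-fold. DESeq2 1.42.0 was an alternative test. The procedure was also run on simulated data with the same spread for all genes and few changed genes. That setting is simpler than these data and does not test the scaling or the calls at low counts. Differences between lines were interaction terms of a fit over 18 libraries. Replicates are separate libraries of 3 mice per group.

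The genes named were, in each direction, the 10 of largest fold change with no overlap and a mean of at least 5 CPM, leaving out numbered gene models, the 8 of largest CPM difference, members of gene lists, 5 by the interaction tests, and the signature genes. The members and the lists were chosen with earlier results of these data known. Promoters came from the RefSeq table on GRCm38.p6, and no other coordinates were used.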

Additional observations from a re-analysis of the deposited data

Results flagged for a closer look

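These genes were singled out because the tumor-scaffold difference of 67NR departed from that of both other lines in edgeR's test of the difference itself. The value given is the smaller of the 2 departures on the log2 scale, and both departures share the 67NR libraries. Above both lines were Rhox5 by 12.84, Pnma5 by 11.94, Cldn9 by 10.16, Lncenc1 by 9.21, Cyp2c55 by 7.22, Ereg by 4.40 and Gzma by 2.54. The values of Rhox5 and Pnma5 are their differences from 4T07, with 4T07 scaffold 22, which held transcripts of both, included. Below both were Il1f9 (-9.00), Nipal2 (-7.53), Hhip (-7.51), Sema3e (-7.47), Ibsp (-7.26), Tnc (-3.26), Pdk1 (-3.26), Krt18 (-2.92), Col1a1 (-2.80) and Hk2 (-2.76). Leaving out 1 library ended some of these calls. Cldn9 against 4T07 lost its call without 4T07 scaffold 22 (adjusted p = 1) and against 4T1 without 4T1 scaffold 34 (0.107) or 36 (0.109), Cyp2c55 against 4T1 without 4T1 scaffold 34 (0.0827), Ibsp against 4T07 without 67NR scaffold 10 (0.167) and Krt18 against 4T07 without 67NR scaffold 12 (0.217), all from edgeR. Some groups held no counts, as the 67NR tumors for Il1f9 and Ibsp and the 67NR scaffolds for Cldn9 and Cyp2c55. There the fitted difference depends on the prior count and is not a measured size.

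Transcripts of the 9 tumor-only genes were also counted in tissues outside the tumor. The genes were chosen for few counts in the control libraries, whose highest held 3, so this level is fixed by the choice and does not show that other counts exceed a background. 67NR lung libraries 14 and 15 held 9 and 44 counts. The lungs of 4T07 mice held at least 84 counts and their spleens at least 208, although these mice did not receive 67NR cells. The 4T07 tumors held 355, 325 and 150 counts of the same 9 genes, which were not chosen to be absent from them. In spleens of 4T07 mice Rhox5 was at 77.6, 87.8 and 27.8 CPM, above the 19.3, 5.62 and 2.54 CPM of the 4T07 tumors. The cause was not tested.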

How the results depend on the processing

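With at least 10 counts in every library, 1945 genes were higher and 1697 lower in tumors. Higher genes were then 53.4% of calls, against 46.1% in the main fit, and the median log2 fold change was 0.036. Under that filter 1126 differences from 4T07 were larger and 1113 smaller. Against 4T1 791 were smaller, and 550 were smaller than both, as fewer genes were tested (10540 and 10098). With libraries thinned to the lowest total, 3385 genes were higher and 3530 lower, with a median of -0.030. The balance between higher and lower genes thus moved with the count filter and with depth. The number of tumor-only genes was 19 at a minimum of 10 CPM and 3 at 50 CPM. Leaving out single libraries gave 3109 to 3340 higher and 3335 to 4021 lower genes. It gave 1511 to 1988 larger and 1883 to 2419 smaller differences against 4T07, 1013 to 1296 and 1431 to 1831 against 4T1, and 702 to 867 and 988 to 1283 against both. Control scaffolds as the reference (3381 higher, 3668 lower) and leaving out ribosomal RNA and mitochondrial genes (3350, 3963) were chosen after seeing the data. DESeq2 called 3131 higher and 3401 lower genes. No called result changed direction. Sign changes were confined, among the named genes, to 5 that were not called. Epcam, at 0.00012 on the log2 scale, was at -0.0028 with DESeq2 size factors, -0.031 by library totals only, -0.039 without a filter, -0.020 with all 45 libraries, -1.08 against control scaffolds and -0.0048 without ribosomal RNA and mitochondrial genes, and -0.42 to 0.67 without single libraries. Krt8 (0.023) was at -0.0068 by library totals only, -0.017 without a filter, -0.0053 with all libraries and -0.16 against control scaffolds, and -0.39 to 0.72 without single libraries. Vim (0.08) was at -0.014 against control scaffolds. Without single libraries Vim was at -0.077 to 0.34, Krt18 at -1.07 to 1.04 and Cd3e at -1.68 to 0.054. The cause was not tested. Of 1020 alternative list counts 80 moved by more than 1.5 times, and those of neutrophil, Hox, B cell, fat, muscle, basal epithelium and position genes changed with 1 library. No paired analysis was possible because the labels do not link a tumor to a scaffold. Genes near 3 counts per library could not be told from absent.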
